A study of Mus musculus with 24 samples.

Results

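The genes described here are the calcium channels, calcium stores and calcium pumps of the vessel wall, a list of 47 genes named by symbol. All 47 were found among the 54752 genes of the count table, and 40 of them had enough reads in the DA and aorta libraries to be tested. The list holds 9 pore subunits of voltage-gated channels, 8 auxiliary subunits, 6 release channels of the internal store, 10 genes of store-operated and TRP entry, 5 genes of store refill, 7 genes of extrusion and 2 store buffers.

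RNA-Seq was performed on the ductus arteriosus (DA), the fetal shunt between the pulmonary artery and the aorta, and on the ascending aorta, both taken from E18.5 mouse embryos. Prdm6, a PR-domain protein selective for smooth muscle cells (SMCs), was depleted with a Cre driven by Wnt1, which recombines in neural crest derivatives and leaves other cells of the vessel intact. The Prdm6-deficient groups were Wnt1Cre;PRDM6f/f (5 DA and 5 aorta libraries). The controls were PRDM6wt/f (5 DA and 5 aorta libraries), PRDM6wt/wt (1 DA library) and Wnt1Cre;PRDM6wt/wt (1 DA and 1 aorta library), so most controls carried a floxed allele and no Cre. Among the Prdm6-deficient DA libraries, replicates 1 and 2 were each pooled from 2 embryos. Replicate 4 had no column in the count table and so was not analysed here. The vessels were microdissected whole, so that less RNA of a gene per cell and fewer cells that make it cannot be told apart.

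Smooth muscle contracts when calcium rises in the cytosol. Calcium enters through voltage-gated channels in the plasma membrane and through store-operated and TRP channels, and it leaves the sarcoplasmic reticulum through ryanodine and inositol trisphosphate receptors. SERCA pumps refill the reticulum, calsequestrins hold calcium inside it, and plasma membrane pumps and sodium-calcium exchangers push it out of the cell. The DA closes after birth by contraction as oxygen rises, and calcium entry through voltage-gated channels is part of that response.

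Levels are given as CPM, the read count scaled to a common library size with TMM factors, and all differences are log2 fold changes with their standard error (SE) from edgeR's quasi-likelihood test. A gene was called when its Benjamini-Hochberg adjusted p, taken over the 16463 genes tested, was below 0.01 and its log2 fold change was beyond 0.5. Total counts ran from 15163974 to 22610547 per library, so that 3 counts stood for 0.133 to 0.198 CPM. Prdm6 itself was at 72.7 ± 8.50 CPM (SD, n = 5) in the Prdm6-deficient DA and 108 ± 16.3 CPM (n = 7) in the controls, with a log2 fold change of -0.57 (adjusted p = 5.5e-04), and in the aorta its log2 fold change was -0.69 (adjusted p = 1.7e-04). All 7 smooth muscle markers were detected in every group. Their summed level was 9735 to 11782 CPM in the Prdm6-deficient DA, 13279 to 23312 CPM in control DA, 9305 to 10989.5 CPM in the Prdm6-deficient aorta and 8489.7 to 12067.5 CPM in control aorta. The summed level of 10 cardiomyocyte markers was 1294 CPM in control DA replicate 1, against 28.1 to 210.5 CPM in the other controls of that vessel and 75.3 to 529 CPM in the Prdm6-deficient DA. Melanocyte markers also set the genotypes apart in the DA, where 4 of 5 were called lower and the sum was 1.87 to 4.96 CPM against 32.2 to 225 CPM in controls, and their part in the results below was not tested.

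Per length of exon, the calcium genes spanned a wide range in control DA, which the plot of levels per exon length shows by role. Atp2a2, the SERCA2 pump that refills the store, was the highest at 56.2 ± 12.5 CPM per kb (SD, n = 7). Cacnb3, a channel beta subunit, followed at 17.9 ± 2.11 CPM per kb. Cacna1g, a T-type pore, stood at 11.3 ± 1.52 CPM per kb and Orai3, a store-operated channel, at 10.2 ± 2.13 CPM per kb, values that differed by less than their spread.

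Within the pore subunits Cacna1g stood above Cacna1c. The other T-type pores, Cacna1h at 0.592 and Cacna1i at 0.0102 CPM per kb in control DA, stood below Cacna1c. Cacna1c, the L-type pore of smooth muscle, stood at only 1.55 ± 0.222 CPM per kb in control DA, and at 2.49 CPM per kb when the longest transcript in place of all exons was taken as its length. Cacna1g was above it by either length, with 13.7 CPM per kb for its longest transcript. Itpr1, the main inositol trisphosphate receptor of muscle, was at 2.55 ± 0.373 CPM per kb, and the ryanodine receptors were below it at 0.349 for Ryr2, 0.215 for Ryr3 and 0.0239 for Ryr1. At the bottom, 7 genes did not pass the filter on low counts: Cacna1i, Cacna1s, Cacna2d4, Trpc4, Trpc6, Atp2a1 and Atp2b3. Cacna1s, the skeletal muscle L-type pore, had no read in any control library of either vessel, and at most 2 counts elsewhere.

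**Figure D1:**
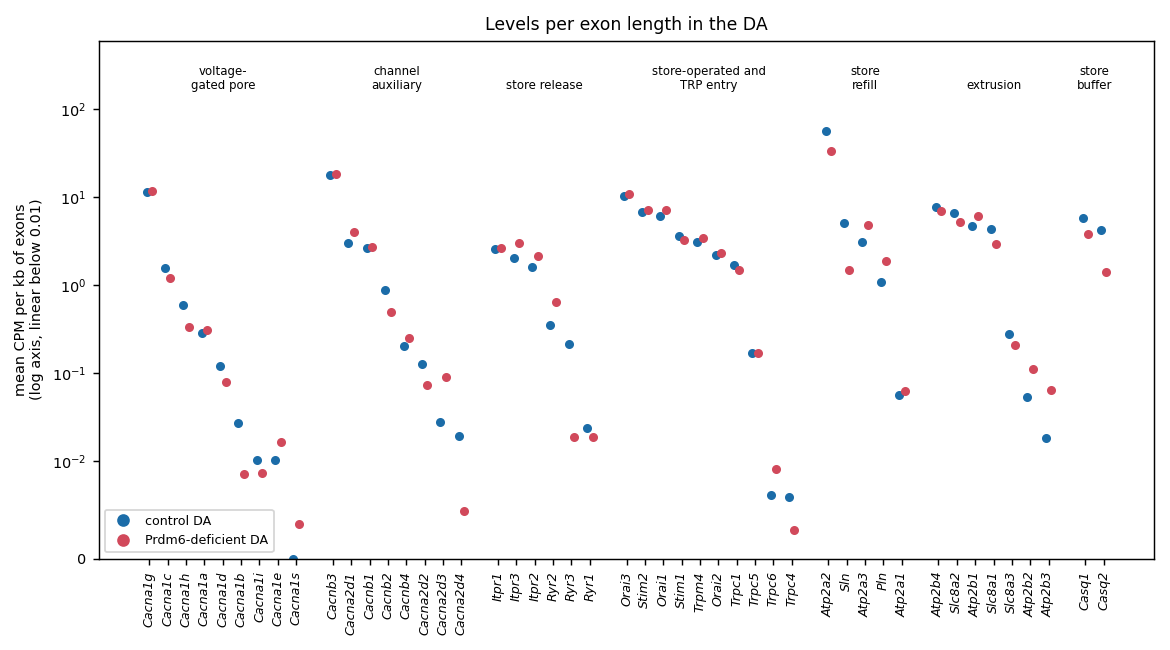
Mean level of each of the 47 genes in control DA (blue) and Prdm6-deficient DA (red), in CPM per kb of exons on a log axis that is linear below 0.01. Genes are grouped by role and ordered within a role by control DA; Atp2a2 stands highest in both groups, at 56.2 and 33.6 CPM per kb.

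Between genotypes in the DA, 2 of the 40 calcium genes were called (5%), where 5.43% of all genes tested were called. Both were lower in the Prdm6-deficient vessel, a direction in which 2.82% of all genes were called. They were Atp2a2 and Slc8a1, one of which fills the store and the other of which clears calcium from the cell. The median log2 fold change of the 40 was 0.04, beside 0.01 over all genes. At an adjusted p below 0.05 alone, the count was 7 of 40, beside 12.4% of all genes. Levels of 4 genes did not overlap between the genotypes (10%, beside 5.66% of all genes): Ryr3, Atp2a2, Atp2b1 and Slc8a1.

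Of the 4 tested genes of store refill, 1 was called, the SERCA2 pump, which was lower. Beside 5.43% of all genes called and 2.82% called lower, 1 call among so few genes does not set the role apart. Atp2a2 (chr5:122453513-122502225, minus strand, GRCm38, whose exons overlap a predicted gene on the opposite strand) stood at 201, 202, 212, 219 and 187 CPM in the 5 Prdm6-deficient DA libraries. In the 7 control DA libraries it ran from 237 to 464 CPM with a median of 347. Every Prdm6-deficient library was thus below every control. Its log2 fold change was -0.74 (SE 0.12, adjusted p = 6.4e-05), which left 59.8% of the control level. The call held in each of the 23 fits that left out 1 library, with log2 fold changes of -0.81 to -0.65. Cardiomyocytes express Atp2a2 strongly, and without the DA library of each genotype that was highest in their markers it was -0.62 (adjusted p = 6.0e-04). Within the first run of animal numbers it was -0.72 (adjusted p = 0.042) and within the second -0.82 (adjusted p = 0.096). Of the 7 smooth muscle markers, 5 were called lower in the same comparison, and their part in the difference was not tested.

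The other 3 tested genes of refill were not called. Atp2a3, the SERCA3 pump of endothelium and blood cells, was at 16.9 to 41.7 CPM in the Prdm6-deficient DA and 11.7 to 25.7 CPM in control DA (log2 fold change 0.62, SE 0.20, adjusted p = 0.037). It was called only without control replicate 2 (adjusted p = 0.0062) or without the controls with Cre (adjusted p = 0.0080), which is the same library of the DA. Endothelial markers summed to 845 to 1173 CPM and 671 to 971 CPM in these groups, none of the 6 was called, and their part was not tested. Phospholamban (Pln) and sarcolipin (Sln), the small inhibitors of SERCA, were low, with medians of 0.935 and 1.42 CPM in the Prdm6-deficient DA and 1.65 and 0.910 CPM in control DA. Exons of Pln overlap Cep85l on the opposite strand, and its reads cannot be assigned with certainty where strand was not used in counting. Sln was at 38.9 CPM in control DA replicate 1 and at most 3.47 CPM in any other control DA.

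Extrusion was divided. Slc8a1, the sodium-calcium exchanger NCX1 (chr17:81373105-81738377, minus strand, overlapped by a pair of predicted genes on the other strand), stood at 54.8, 57.6, 48.8, 64.9 and 52.5 CPM in the Prdm6-deficient DA. Control DA ran from 68.3 to 92.1 CPM with a median of 81.1. The groups did not overlap, and the log2 fold change was -0.55 (SE 0.13, adjusted p = 0.0050). This call lay close to the threshold: it was kept in 16 of 23 fits that left out 1 library and lost without Prdm6-deficient DA replicate 1, 2, 5 or 7 or control DA replicate 4, 6 or 7, where the adjusted p reached 0.020. Over the 23 fits its log2 fold change was -0.61 to -0.51. Without the DA libraries highest in cardiomyocyte markers it was -0.56 (adjusted p = 0.012). It was also no longer called with the run of animals as a term (-0.52, adjusted p = 0.012) or without the pooled libraries (-0.56, adjusted p = 0.033), and within the first and second run of animals it was -0.52 (adjusted p = 0.17) and -0.59 (adjusted p = 0.11).

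Atp2b1, the plasma membrane pump PMCA1, had the opposite sign. It was at 89.4, 93.5, 92.6, 91.3 and 101 CPM in the Prdm6-deficient DA and at 54.8 to 83.8 CPM in control DA, with no overlap. Its log2 fold change of 0.38 (SE 0.08, adjusted p = 0.0018) passed the p threshold in all 23 fits that left out 1 library but not the fold threshold in any. Read as a ratio within each library, Atp2a2 to Atp2b1 was 1.85 to 2.40 in the Prdm6-deficient DA and 3.29 to 6.74 in control DA. Both genes already lay apart in opposite directions, so this ratio had to separate the genotypes in the DA and is no further result. In the aorta that ratio was 1.56 to 2.03 in the Prdm6-deficient libraries and 1.87 to 3.08 in controls. Atp2b4 was the highest extrusion gene per kb of exons in control DA, at 7.63 CPM per kb, but by the longest transcript it stood at 7.97 and Atp2b1 at 10.1 CPM per kb. It was at 73.9 to 97.5 CPM in the Prdm6-deficient DA and 77.9 to 121 CPM in control DA (log2 fold change -0.13, SE 0.11, adjusted p = 0.56).

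**Figure D2:**
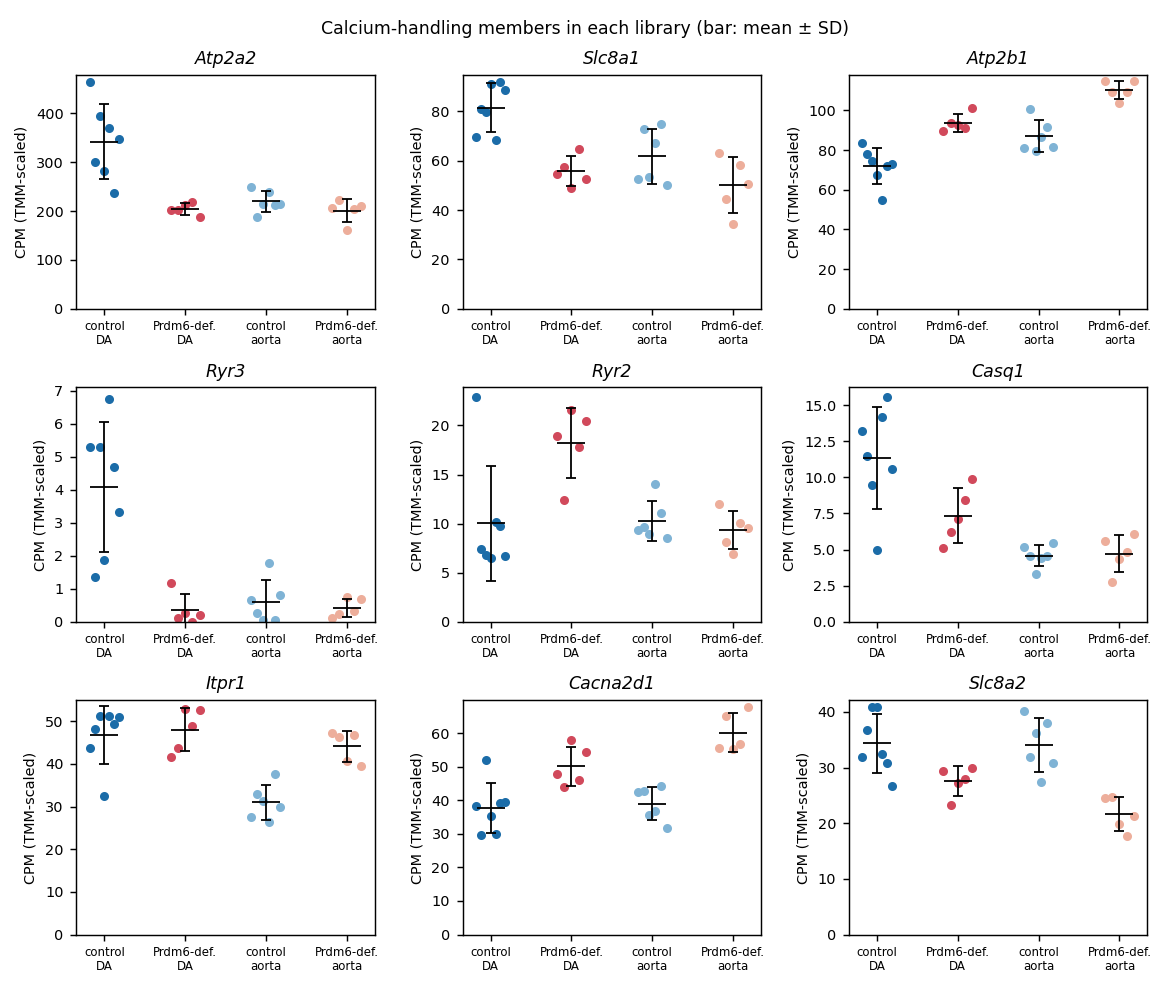
Level of 9 calcium genes in each library in CPM (each axis starts at 0), by vessel and genotype, with the mean and SD as bars. Atp2a2 and Slc8a1 are lower, and Atp2b1 higher, in all 5 Prdm6-deficient DA libraries than in all 7 control DA libraries; Ryr2 shows 1 control DA library at 22.9 CPM, above every other library.

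RefSeq sequence upstream of the start site (mouse build GRCm38.p6) was at hand for 37 of the 47 genes, 48 promoters in all, and is printed for the 4 called genes that have one, so that their promoters can be set beside their changes. Each run covers the 250 bases before the start site, 5′ to 3′ on the strand of the gene, and capitals mark an AP-2 site (GCCNNNGGC).
Slc8a1, chr17:81738388-81738637, minus strand: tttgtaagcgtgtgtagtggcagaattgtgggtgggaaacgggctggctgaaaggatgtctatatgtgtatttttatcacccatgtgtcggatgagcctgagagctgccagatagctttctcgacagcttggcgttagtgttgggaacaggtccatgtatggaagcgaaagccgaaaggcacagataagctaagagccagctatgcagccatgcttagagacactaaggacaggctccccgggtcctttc
Cacna2d1, chr5:15934441-15934690, plus strand: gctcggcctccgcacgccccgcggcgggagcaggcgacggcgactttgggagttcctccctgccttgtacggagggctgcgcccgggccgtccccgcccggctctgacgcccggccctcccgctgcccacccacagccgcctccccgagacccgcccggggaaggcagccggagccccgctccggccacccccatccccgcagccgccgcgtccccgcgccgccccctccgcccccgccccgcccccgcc
Slc8a2, chr7:16129576-16129825, plus strand: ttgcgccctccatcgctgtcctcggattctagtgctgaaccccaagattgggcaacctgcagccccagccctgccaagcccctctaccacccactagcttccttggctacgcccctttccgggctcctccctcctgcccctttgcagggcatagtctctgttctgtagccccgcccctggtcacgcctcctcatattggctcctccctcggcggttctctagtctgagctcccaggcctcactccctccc
Casq1, chr1:172219896-172220145, minus strand: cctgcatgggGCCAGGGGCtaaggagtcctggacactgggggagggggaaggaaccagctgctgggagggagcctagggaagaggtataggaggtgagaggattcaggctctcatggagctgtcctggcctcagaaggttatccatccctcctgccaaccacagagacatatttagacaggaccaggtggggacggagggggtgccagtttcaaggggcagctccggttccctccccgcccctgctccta
Both strands were searched for the AP-2 site, for the CArG box bound by serum response factor and for the MEF2 box. An AP-2 site was found in 13.7% of 32851 promoters and in 8 of the 48 here, those of Atp2b2, Cacna1d, Cacna1i, Cacnb1, Casq1, Itpr2, Itpr3 and Orai1. A CArG box was found in 1.47% of promoters, and among these genes only in that of Trpc6. A MEF2 box was found in 0.508% of promoters and in none of these. The 3 promoters printed without capitals hold none of the 3 motifs in this window.

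Among the release channels of the store, the ryanodine receptors showed the widest spread. Ryr3, a ryanodine receptor found at low levels in many tissues, was at 1.18, 0.114, 0.275, 0 and 0.196 CPM in the Prdm6-deficient DA. Control DA ran from 1.36 to 6.76 CPM with a median of 4.68, so the groups did not overlap. Exons of Ryr3 overlap Aven on the opposite strand, so its reads are uncertain at this level. Its log2 fold change was -3.52 (SE 0.92), with an adjusted p of 0.0104 in edgeR's quasi-likelihood test that lay just outside the threshold. Leaving out Prdm6-deficient DA replicate 1, control DA replicate 2 or 4, or control aorta replicate 3, 4 or 5 brought the call, with adjusted p values down to 0.0022, and so did DESeq2 (adjusted p = 7.8e-05) and leaving out the controls with Cre (adjusted p = 0.0066). In the control aorta it was at 0.0450 to 1.78 CPM.

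Ryr2, the cardiac ryanodine receptor, had the opposite sign. It was at 18.9, 12.4, 21.6, 17.8 and 20.5 CPM in the Prdm6-deficient DA. In control DA it ran from 6.49 to 10.1 CPM in 6 libraries and was at 22.9 CPM in replicate 1. Its log2 fold change was 0.86 (SE 0.25, adjusted p = 0.025), and 1.21 (adjusted p = 7.2e-05) without that library. Without it and without Prdm6-deficient DA replicate 7, the highest of that genotype in cardiomyocyte markers, it was 1.16 (adjusted p = 3.4e-04). The Prdm6-deficient library with the highest Ryr2, replicate 5, had the lowest cardiomyocyte sum of its group at 75.3 CPM. Replicate 7, with the highest sum at 529 CPM, had Ryr2 at 20.5 CPM. The part of cardiomyocytes in the level of Ryr2 was not tested. Within the first run of animals the log2 fold change was 1.45 (adjusted p = 0.042) and within the second, which holds control replicate 1, it was 0.54 (adjusted p = 0.74).

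The inositol trisphosphate receptors open the store after receptor signalling. Itpr1 was at 41.7, 43.8, 52.9, 49.0 and 52.6 CPM in the Prdm6-deficient DA and at 32.4 to 51.3 CPM (median 49.3) in control DA. Between them the log2 fold change was 0.04 (SE 0.11, adjusted p = 0.89), with a 95% interval of -0.18 to 0.25. Itpr2 and Itpr3 had log2 fold changes of 0.42 (adjusted p = 0.074) and 0.56 (adjusted p = 0.11), and reads of Itpr3 overlap the antisense gene Itpr3os.

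For calcium entry, 0 of 7 tested pores, 0 of 7 auxiliary subunits and 0 of 8 store-operated and TRP genes were called in the DA. Of all genes tested, 5.43% were called, so 0 calls among so few genes do not set entry apart. Cacna1g was at 113, 107, 156, 115 and 107 CPM in the Prdm6-deficient DA and at 95.1 to 141 CPM (median 119) in the controls, and the log2 fold change was 0.06 (SE 0.10, adjusted p = 0.82) with a 95% interval of -0.15 to 0.26. Cacna1c was at 13.8 to 33.2 CPM against 25.7 to 39.1 CPM (log2 fold change -0.36, SE 0.18, adjusted p = 0.22). These groups overlapped for both pores. The remaining 5 tested pores, Cacna1a, Cacna1b, Cacna1d, Cacna1e and Cacna1h, had adjusted p values of 0.16 to 0.92.

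Of the auxiliary subunits, Cacnb3 was at 74.3, 87.4, 67.6, 66.9 and 72.7 CPM in the Prdm6-deficient DA and at 64.0 to 89.1 CPM (median 69.1) in control DA (log2 fold change 0.04, SE 0.10, adjusted p = 0.89). Cacna2d1, the alpha2delta subunit that brings channels to the membrane, was at 44.1 to 58.0 CPM against 29.8 to 52.0 CPM (log2 fold change 0.41, SE 0.12, adjusted p = 0.022). It was called only without control DA replicate 3 (adjusted p = 0.0021). Cacnb2, a beta subunit that binds L-type pores, was at 2.01 to 9.08 CPM against 5.31 to 16.7 CPM (log2 fold change -0.86, SE 0.33, adjusted p = 0.097), and its exons overlap 3 predicted genes on the opposite strand.

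For store-operated and TRP entry, the 8 tested genes lay within log2 fold changes of -0.18 and 0.23 in the DA. Orai3 was at 21.3, 18.6, 20.5, 26.2 and 28.9 CPM in the Prdm6-deficient DA and at 15.4 to 27.6 CPM (median 22.5) in control DA (log2 fold change 0.08, SE 0.15, adjusted p = 0.84). None of Stim1 and Stim2, the sensors of store filling, Orai1 and Orai2, the TRP channels Trpc1 and Trpc5 and the calcium-activated cation channel Trpm4 had an adjusted p below 0.43 in the DA.

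Neither store buffer passed the test between genotypes in the DA. Casq1, the calsequestrin of fast skeletal muscle, was at 5.11, 6.19, 7.10, 8.45 and 9.91 CPM in the Prdm6-deficient DA and at 4.95 to 15.6 CPM (median 11.5) in control DA (log2 fold change -0.63, SE 0.25, adjusted p = 0.12). Skeletal muscle markers summed to 21.9 to 57.4 CPM in the Prdm6-deficient DA and 49.4 to 248 CPM in control DA. Of the 7 tested, 1 was called lower, their median log2 fold change was -1.06, and their part in this difference was not tested. Casq2, the cardiac calsequestrin, was at 0.932 to 5.40 CPM in the Prdm6-deficient DA. In control DA replicate 1 it was at 60.2 CPM, and in the other controls at 0 to 7.13 CPM. Its log2 fold change of -1.58 (adjusted p = 0.29) became 0.17 (adjusted p = 0.92) without that library, and that of Sln went from -1.78 (adjusted p = 0.40) to 0.61 (adjusted p = 0.80), so the sign of both rested on 1 library. That library was also the highest in cardiomyocyte markers, with 1294 CPM, and in skeletal muscle markers, with 248 CPM against 49.4 to 87.2 CPM in the other controls.

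**Figure D3:**
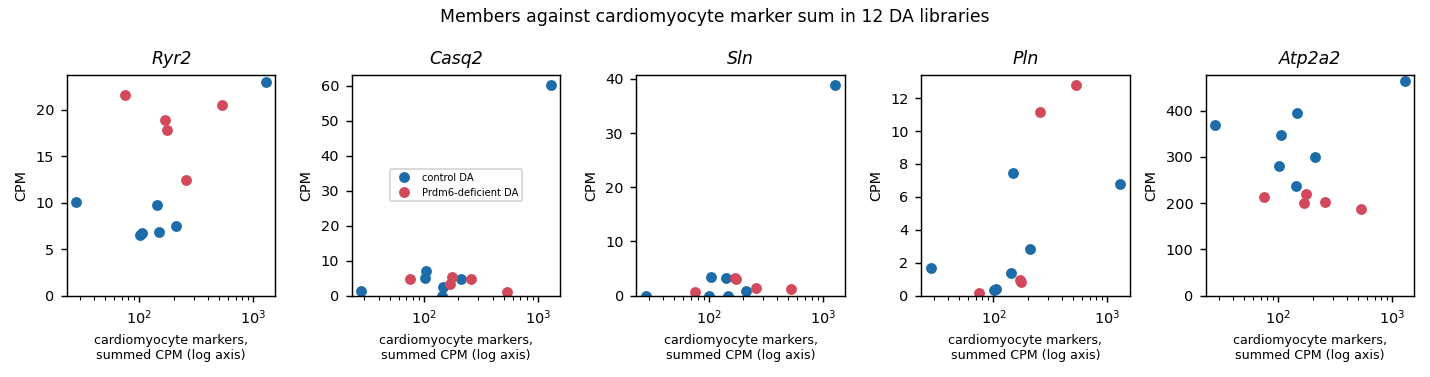
Level of 5 calcium genes (CPM) against the summed level of 10 cardiomyocyte markers (CPM, log axis) in 7 control DA (blue) and 5 Prdm6-deficient DA (red) libraries. Control DA replicate 1, at 1294 CPM of markers, holds the highest Ryr2, Casq2, Sln and Atp2a2, whereas Pln is highest, at 11.1 and 12.8 CPM, in the Prdm6-deficient replicates 2 and 7 with 258 and 529 CPM of markers.

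In the ascending aorta, 3 of the 40 tested genes were called between genotypes (7.5%), beside 2.45% of all genes. Cacna2d1 and Itpr1 were higher (1.63% of all genes were called higher) and Slc8a2 was lower (0.826% were called lower). None of them was called in the DA, and neither Atp2a2 nor Slc8a1 was called in the aorta. Levels of 6 genes did not overlap between the genotypes (15%, beside 6.95% of all genes): Cacna2d1, Cacna2d3, Itpr1, Orai2, Atp2b1 and Slc8a2. Cacna2d3 was low, at 0.689 to 1.28 CPM against 0.0450 to 0.289 CPM (log2 fold change 2.53, SE 0.92, adjusted p = 0.13). The median log2 fold change of the 40 was -0.02, beside 0.00 over all genes.

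Cacna2d1 (chr5:15934691-16374511, plus strand) was at 55.5, 65.1, 55.4, 56.9 and 67.9 CPM in the Prdm6-deficient aorta and at 31.8 to 44.3 CPM (median 39.6) in control aorta. Its log2 fold change was 0.63 (SE 0.12, adjusted p = 0.0015), and the call held in all 23 fits that left out 1 library and within the second run of animals (0.66, adjusted p = 0.0037). The first run holds 1 control aorta library and gave no value of its own.

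Itpr1 (chr6:108213096-108551109, plus strand) was at 47.3, 46.3, 40.6, 46.8 and 39.5 CPM in the Prdm6-deficient aorta and at 26.5 to 37.8 CPM (median 30.6) in control aorta. All 5 were above all 6 controls, and the log2 fold change was 0.51 (SE 0.11, adjusted p = 0.0056). The call was kept in 16 of 23 fits that left out 1 library. It was lost without Prdm6-deficient aorta replicate 1, 2 or 4 or control aorta replicate 1, 3, 4 or 6, where the log2 fold change was 0.47 to 0.51 and the adjusted p reached 0.021. It was also lost without the controls with Cre (0.51, adjusted p = 0.014) and within the second run of animals (0.52, adjusted p = 0.026). Exons of Itpr1 overlap a pair of predicted genes on the opposite strand.

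Slc8a2, the sodium-calcium exchanger NCX2 (chr7:16129826-16161063, plus strand), was at 24.6, 24.7, 19.9, 17.7 and 21.3 CPM in the Prdm6-deficient aorta and at 27.4 to 40.2 CPM (median 34.0) in control aorta (log2 fold change -0.66, SE 0.13, adjusted p = 0.0014). All 5 Prdm6-deficient libraries were below all 6 controls, and the call held in all 23 fits that left out 1 library but not within the second run of animals (-0.52, adjusted p = 0.041). In the DA the same gene was at 23.2 to 29.9 CPM against 26.7 to 40.9 CPM (log2 fold change -0.32, SE 0.12, adjusted p = 0.10).

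Atp2b1 was at 104 to 115 CPM in the Prdm6-deficient aorta and at 79.6 to 101 CPM in control aorta (log2 fold change 0.35, SE 0.08, adjusted p = 0.011), and the fold in the DA minus that in the aorta was 0.03 (SE 0.12, adjusted p = 0.94, 95% interval -0.20 to 0.26). Orai2 was at 17.2 to 20.7 CPM against 8.82 to 14.0 CPM (log2 fold change 0.68, SE 0.20, adjusted p = 0.052), with no overlap, and was called in a fit of the aorta alone (adjusted p = 0.0041). Atp2a2 was at 207, 222, 161, 204 and 211 CPM in the Prdm6-deficient aorta and at 188 to 250.0 CPM (median 214) in control aorta (log2 fold change -0.13, SE 0.12, adjusted p = 0.79). No smooth muscle marker was called in the aorta, but other markers moved with the genotype there. Called higher in the Prdm6-deficient aorta were 2 of 6 endothelial markers, 1 of 7 tested neuron markers and 1 of 5 fibroblast markers. The fibroblast markers as a set lay the other way, with a median log2 fold change of -0.30. Their sum was 3128 to 4018 CPM against 3854 to 4836 CPM in controls, with overlap. Neuron markers summed to 45.0 to 91.3 CPM against 23.5 to 38.2 CPM in controls, and macrophage and leukocyte markers to 53.8 to 81.3 CPM against 93.3 to 177 CPM, both without overlap. The part of these cells in the calls of the aorta was not tested.

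**Figure D4:**
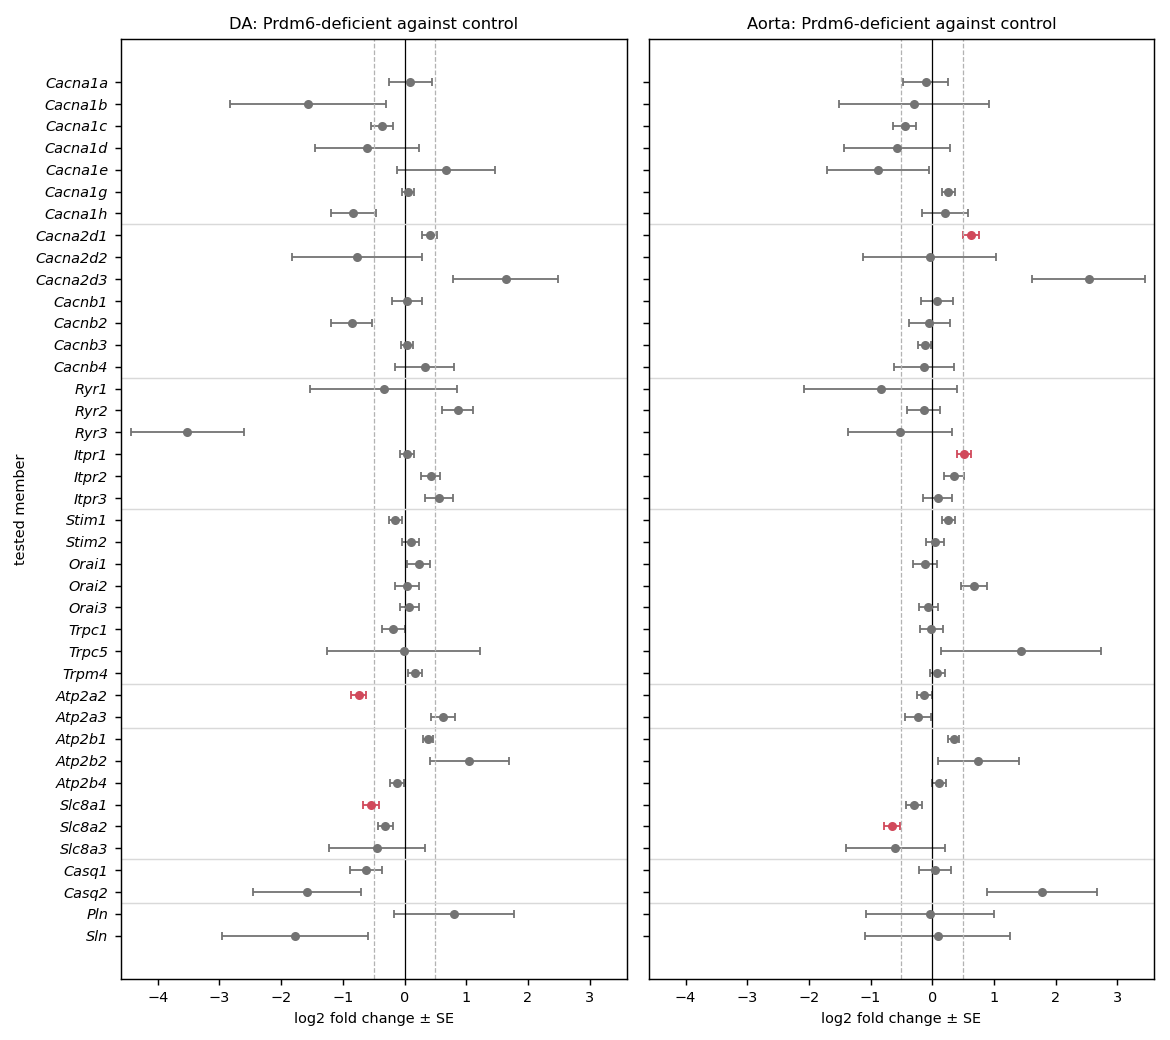
Log2 fold change (± SE) between Prdm6-deficient and control libraries for the 40 tested genes in the DA (left) and the aorta (right), grouped by role, with dashed lines at 0.5 either way and called genes in red. Atp2a2 (-0.74) and Slc8a1 (-0.55) are red in the DA, and Cacna2d1 (0.63), Itpr1 (0.51) and Slc8a2 (-0.66) in the aorta.

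The effect of Prdm6 loss was then compared between the vessels in an interaction term. In that test 0 of the 40 genes were called (2.58% of all genes were), with 8 at an unadjusted p below 0.05 in edgeR (20%, beside 15.9% of all genes) and 1 called by DESeq2, Atp2a2. Its fold in the DA minus that in the aorta was -0.61 (SE 0.17, adjusted p = 0.028), and DESeq2 gave an adjusted p of 0.0048. It was called in edgeR without control DA replicate 6 (adjusted p = 0.0039), and Ryr2 without control DA replicate 1 (1.35, adjusted p = 0.0025). The difference between the vessels was not shown at the threshold for any of the 5 genes called in one vessel. For Slc8a1 it was -0.25 (SE 0.19, adjusted p = 0.60), for Itpr1 -0.47 (SE 0.16, adjusted p = 0.091), for Cacna2d1 -0.22 (SE 0.17, adjusted p = 0.63) and for Slc8a2 0.34 (SE 0.18, adjusted p = 0.36).

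Control DA was compared with control aorta to show which calcium genes set the vessels apart with Prdm6 intact. Of the 40 genes, 3 were called (7.5%, beside 5.36% of all genes), all higher in the DA (3.16% of all genes were called higher). Levels of 0 of the 40 were free of overlap, beside 5.36% of all genes. The control DA libraries enter this comparison and the genotype comparison of the DA alike, so the values of each are given side by side with no test between them. All 6 control aorta libraries came from embryos that also gave a control DA library, and with the animal as a term in those embryos the same 3 genes were called (Atp2a2 0.57, adjusted p = 0.0018; Itpr1 0.56, adjusted p = 0.0028; Casq1 1.29, adjusted p = 0.0070).

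Atp2a2 was higher in control DA, with 237 to 464 CPM against 188 to 250.0 CPM in control aorta (log2 fold change 0.64, SE 0.11, adjusted p = 1.8e-04), and 6 of its 7 control DA libraries were above every control aorta library. Without the DA libraries highest in cardiomyocyte markers it was 0.55 (adjusted p = 5.3e-04). Itpr1 was at 32.4 to 51.3 CPM in control DA and at 26.5 to 37.8 CPM in control aorta (0.59, SE 0.11, adjusted p = 2.2e-04), with control DA replicate 4 alone inside the range of the aorta. Casq1 (chr1:172209894-172219868, minus strand) was at 4.95 to 15.6 CPM in control DA and at 3.28 to 5.47 CPM in control aorta (1.31, SE 0.25, adjusted p = 4.0e-04), again with replicate 4 alone inside that range. All 3 calls held in every fit that left out 1 library, and within the second run of animals their log2 fold changes were 0.62 (adjusted p = 0.018), 0.56 (adjusted p = 0.026) and 1.28 (adjusted p = 0.012). Of the smooth muscle markers, 5 of 7 were called higher in control DA. Skeletal muscle markers summed to 49.4 to 248 CPM in control DA and 8.29 to 28.8 CPM in control aorta, with 7 of the 8 markers detected in control DA (Myog was at 0) and 2 of the 7 tested called higher there. Their median log2 fold change was 1.53, and their part in the level of Casq1 was not tested.

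The promoter of Casq1 printed above holds its AP-2 site at position -240 from the start site. Exons of Casq1 overlap a predicted gene on the opposite strand. Ryr3 and Casq2, with log2 fold changes of 2.75 (adjusted p = 0.025) and 3.07 (adjusted p = 0.021) between the control vessels, were called by DESeq2 and without control aorta replicate 4, and Casq2 also without control DA replicate 6. Without the DA libraries highest in cardiomyocyte markers, Casq2 had a log2 fold change of 1.31 (adjusted p = 0.27).

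Of the 5 Prdm6-deficient aorta libraries, 4 came from embryos that also entered a DA library, and this was not a term in the comparison of the Prdm6-deficient vessels or in the interaction. Between the Prdm6-deficient vessels, 0 of the 40 calcium genes were called in edgeR and 0 in DESeq2, beside 0.267% of all genes in edgeR, and 6 had an unadjusted p below 0.05 in edgeR (15%, beside 10.05% of all genes). Atp2a2 was at 187 to 219 CPM in the Prdm6-deficient DA and at 161 to 222 CPM in the Prdm6-deficient aorta (log2 fold change 0.02, SE 0.13, adjusted p = 0.98, 95% interval -0.22 to 0.27). Ryr2 was at 12.4 to 21.6 CPM against 6.93 to 11.98 CPM, with no overlap (log2 fold change 0.97, SE 0.28, adjusted p = 0.12). Casq1 was at 5.11 to 9.91 CPM against 2.75 to 6.05 CPM (0.64, SE 0.27, adjusted p = 0.39).

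A wider list of 83 other calcium genes was compared in the same fits, of which 71 were tested. In the DA 8 were called between genotypes, 3 lower and 5 higher (11.3%, beside 5.43% of all genes, with 2.82% called lower and 2.61% higher). Trpv2, a TRP channel, was lower (6.17 ± 0.85 CPM against 16.8 ± 4.22 CPM, log2 fold change -1.44, SE 0.21, adjusted p = 1.7e-05), and so were Slc24a4, a potassium-dependent exchanger (-0.96), and Camk2d, a calmodulin-dependent kinase (-0.57). Higher were Camk2b, another kinase of that family (2.02), Piezo2, a mechanosensitive channel (1.75), Rrad, a small GTPase that restrains L-type channels (1.31), and Plcb1, which makes inositol trisphosphate (0.83). Without the DA libraries highest in cardiomyocyte markers, 5 of the 71 were called, and the calls of Slc24a4, Rrad and Plcb1 were lost. Of all genes, 817 of 16725 were called in that fit.

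In the aorta, 2 of the 71 were called (2.82%, beside 2.45% of all genes). Piezo2 was higher (37.4 ± 3.0 CPM against 5.23 ± 1.34 CPM, log2 fold change 2.84, SE 0.24, adjusted p = 5.7e-09). Slc24a3, another potassium-dependent exchanger, was lower (-0.70, adjusted p = 0.0099), and its call was lost in most fits that left out 1 library. Between the control vessels 10 were called (14.1%, beside 5.36% of all genes), of which 4 were higher in the DA (Trpv2 1.74, Rem1 1.40, Camk2d 0.61 and Nfatc4 0.50). The 6 lower ones, beside 2.19% of all genes, were led by Jph4 (-2.10), Camk2b (-2.01), Rrad (-1.58) and Plcb1 (-1.20). None of the 71 was called between the Prdm6-deficient vessels in edgeR, with 7 at an unadjusted p below 0.05 (9.86%), and DESeq2 called 1. In the interaction, 4 were called (5.63%, beside 2.58% of all genes): Trpv2 (-1.74) in the lower direction, and Camk2b, Rrad (2.07) and Slc24a3 (1.03) in the higher.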

How the data were processed

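RNA-Seq was measured in 23 DA and ascending aorta libraries. Per the labels and methods, the authors filtered paired-end reads on quality, aligned them to mm10 with STAR and quantified genes with RSEM. The deposited values are RSEM expected counts, not normalized, of which none carried another sample's name (0 columns without a sample). Whether counting used strand is not given in the sources used here. Of 54752 IDs, 54723 matched GENCODE M21, which gave symbols, positions and exon lengths.

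Counts were rounded to whole numbers, filtered with filterByExpr, scaled with TMM and tested with edgeR 4.0.16 (quasi-likelihood, R 4.3.3) in 1 fit of all 4 groups with no covariate, Benjamini-Hochberg adjusted over all genes. The thresholds for a call were 0.01 on the adjusted p and 0.5 on the log2 scale. DESeq2 1.42.0 and the other alternatives stand in the closing section. Some were chosen after seeing the data. They were a fit without the DA libraries highest in cardiomyocyte markers, a fit of the aorta of the second run alone and a fit of the controls of the second run alone. The 2 runs are the series of animal numbers in the labels, and nothing says that they were processed apart. The code was tested on simulated data. Replicates within a group are separate embryos or pools, but DA and aorta libraries share embryos in 10 pairs, which the main fit does not model. Counts and intervals cover counting error and the spread between these samples only.

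The genes and lists were chosen with earlier results of these data known. Described were all genes of the list called in any comparison. Those called in the DA have the value of each Prdm6-deficient DA library and the range and median of control DA. So do the highest per length in each role, except Atp2b4 for extrusion, which has ranges only. From the wider list, the called genes with the largest changes were described, at most 4 each way. Levels per kb used the union of exons.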

Additional observations from a re-analysis of the deposited data

Results flagged for a closer look

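Of 160 combinations of a tested gene and a group, 13 held 1 library that stood apart from the rest of its group by Dixon's test at the 95% level. Chance flags about 1 in 20 groups, and the cause was not tested for any of them. Control DA replicate 1 was the highest of its group in 4 of them, with Casq2 at 60.19 CPM, Sln at 38.88 CPM, Ryr2 at 22.94 CPM and Cacna2d2, an alpha2delta subunit, at 4.366 CPM. In the other control DA libraries, replicate 5 was highest for Cacnb3 at 89.13 CPM and replicate 4 lowest for Itpr1 at 32.43 CPM. In the Prdm6-deficient DA, replicate 5 was highest for Cacna1g at 155.5 CPM, replicate 1 for Ryr3 at 1.184 CPM, replicate 2 for Cacna1e at 1.306 CPM and replicate 7 for Cacna2d2 at 1.816 CPM. In control aorta, replicate 6 was lowest for Cacnb2 at 3.787 CPM and replicate 4 highest for Casq2 at 4.242 CPM, and in the Prdm6-deficient aorta replicate 4 was highest for Cacna1b at 1.024 CPM.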

How the results depend on the processing

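No log2 fold change of a called calcium gene changed sign under any alternative. Of the 2 genes called in the DA, 1 was left (Atp2a2) with the animal run as a term or without the pooled libraries. Without the controls with Cre 4 were called, and 0 within the first or the second run alone, which hold 5 and 7 libraries. Over all genes, the main fit called 894 of 16463 in the DA, and the fit with the run term 816 of 16463. Without the pooled libraries it was 650 of 17369, and without the controls with Cre 919 of 16308. Within the first and second run only 61 of 15622 and 147 of 16438 of all genes were called, so calls were lost there across all genes. Leaving out single libraries gave 1 to 4 called calcium genes. In the aorta it was 2 to 3 so, and 1 (Cacna2d1) within the second run. Of all genes, 460 of 15587 were called in the aorta within that run and 404 of 16463 in the main fit. Between the control vessels the count of calcium genes was 3 to 5 when each library was left out, 5 with DESeq2 and 0 within the second run. Over all genes DESeq2 called 1050 of 16463 there, the second run 550 of 14877 and the main fit 882 of 16463. In the interaction the count of calcium genes was 0 to 1, with 1 in DESeq2 (Atp2a2) and 1 without the DA libraries highest in cardiomyocyte markers (Ryr2). Some of these fits hold fewer libraries, and the cause of the shifts was not tested.

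For the wider list, the DA count of 8 was 5 without the pooled libraries, 5 in a fit of the DA alone and 5 without the DA libraries highest in cardiomyocyte markers. It was 1 and 0 within the first and second run, where 61 of 15622 and 147 of 16438 of all genes were called. With 1 library left out it was 6 to 9. The aorta count of 2 was 1 with no filter on low counts, without the control with Cre and without the libraries high in cardiomyocyte markers, and 1 to 2 with 1 library left out. Between the control vessels 10 became 6 within the second run. Between the Prdm6-deficient vessels 0 became 1 in DESeq2, and the interaction's 4 became 2 to 5 with 1 library left out.

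By the animal numbers in the labels, same-numbered libraries of a vessel came from different embryos. Their deviations from the group means correlated at -0.054 to 0.133 over 10 pairs. Libraries known to share an animal correlated at only -0.022 to 0.080 over 10 pairs. The correlation thus did not detect sharing where it was known, and it cannot decide whether the numbers pair libraries. With a replicate block, 2 calcium genes were called in the DA and 3 in the aorta, while on the wider list the aorta count was 1 and the interaction count 2. The block changed no other count by over 1.5 times.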
